A study of Arabidopsis thaliana with 18 samples.

Results

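The comparison described here is the interaction of genotype with time under far-red light in dark-grown seedlings of Arabidopsis thaliana, ecotype Columbia. It is the change from 1 h to 24 h of far-red light in the pif4pif5 double mutant minus the same change in wild type, which equals the difference between the genotypes at 24 h minus that at 1 h. It was taken from 12 of the 18 arrays of the series, 3 in each of 4 groups, and from all 22746 probe sets besides the Affymetrix controls. The arrays from darkness took no part in it, and their values are given only as a description. Seeds were held cold for 3 days, germinated with a 3 h pulse of red light and left in darkness for 3 days. Wild type and pif4pif5 at 1 h then received far-red light of 0.5 µmol/m2/s for 1 h, and wild type and pif4pif5 at 24 h received 5 µmol/m2/s for 24 h. The time points thus differ at once in how long the light lasted, how strong it was and how old the plants were, and these cannot be told apart. The RNA came from pools of seedlings, and the labels do not say whether replicates were separate cultures. The p values thus reflect only how these particular arrays varied, possibly for technical reasons.

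PIF4 and PIF5 are basic helix-loop-helix transcription factors that bind the light-activated form of phytochrome and promote the growth of dark-grown and shaded seedlings. Phytochrome A, the receptor that acts in far-red light, drives the turn away from growth in darkness: the hypocotyl slows and genes of the photosynthetic machinery are switched on. The study's title says that PIF4 and PIF5 limit this turn. In the platform annotation neither factor had a probe set assigned to it, so PIF4 and PIF5 themselves were not checked and the genotypes are as labelled. Whether any of the 8730 tested probe sets without an assigned gene reads either factor is not known here. In a pooled seedling sample, fewer cells of a type and less RNA per cell cannot be told apart.

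Values are log2 signals, and a difference is in log2 units with the standard error (SE) of a linear model (limma) over the 12 arrays. A probe set was called when its Benjamini-Hochberg adjusted p over all probe sets was under 0.05. An exact test of 3 arrays against 3 cannot go below 0.1, so calls rest on a spread shared across probe sets. The middle probe set had a level of 5.73, and 25% lay under 3.57. The median spread within a group (SD, n = 3) was 0.111 in wild type and 0.135 in pif4pif5 at 1 h, and 0.174 and 0.179 at 24 h. Replicate C of wild type at 24 h correlated at 0.988 to 0.990 with its own group. With replicates A, B and C of pif4pif5 at 24 h it correlated at 0.9906, 0.9795 and 0.9929, the highest being the array of the same letter. Replicate B of pif4pif5 at 24 h correlated at 0.982 to 0.986 with its own group. The counts of calls in the interaction are given with and without these arrays of 24 h, called atypical below. Replicate C of pif4pif5 at 1 h correlated at 0.9903 to 0.9946 with its own group and at 0.9947 to 0.9951 with wild type at 1 h. Without it the interaction count stayed at 1, and the count between the genotypes at 1 h went from 4 to 65.

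One probe set, 245325_at, changed differently between the genotypes, which is 0.0044% of those tested. It was lower in the interaction, and 0 were higher. On the probe set the wild type read 12.04, 12.04 and 11.88 at 1 h and 11.81, 11.60 and 11.62 at 24 h. The mutant read 11.20, 11.21 and 11.43 at 1 h and 8.88, 9.29 and 9.04 at 24 h. The genotypes did not overlap at either time, which held for 17.1% of all probe sets at 1 h and 13.2% at 24 h. The 3 mutant arrays at 24 h lay far below the other 9 far-red arrays, the lowest of which read 11.20. In darkness the levels were 12.31, 12.42 and 12.37 in wild type and 11.98, 12.06 and 12.18 in the mutant, all within or above the range of wild type at 1 h and 24 h.

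The signal of 245325_at fell by 2.21 in pif4pif5 between 1 h and 24 h (SE 0.13, adjusted p = 4.25e-07), while the wild type differed by -0.31 (SE 0.13, adjusted p = 0.149). The interaction was -1.90 (SE 0.18, 95% confidence interval -2.29 to -1.51, adjusted p = 0.00155). On the linear scale the ratio of 24 h to 1 h was 3.73-fold lower in the mutant than in wild type. Between the genotypes the difference was -0.71 at 1 h (SE 0.13, adjusted p = 0.115) and -2.61 at 24 h (SE 0.13, 6.11-fold, adjusted p = 1.75e-07). The interaction was called in each of the 21 alternatives that kept the probe set, with values from -2.04 to -1.80 and adjusted p from 1.2e-04 to 0.011. The atypical wild-type array at 24 h read 11.62, beside the other arrays of its group. The platform's annotation assigns no gene to this probe set, so no role can be given for it, and the fit over single-gene probe sets called 0 (719 at an unadjusted p under 0.05).

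**Figure D1:**
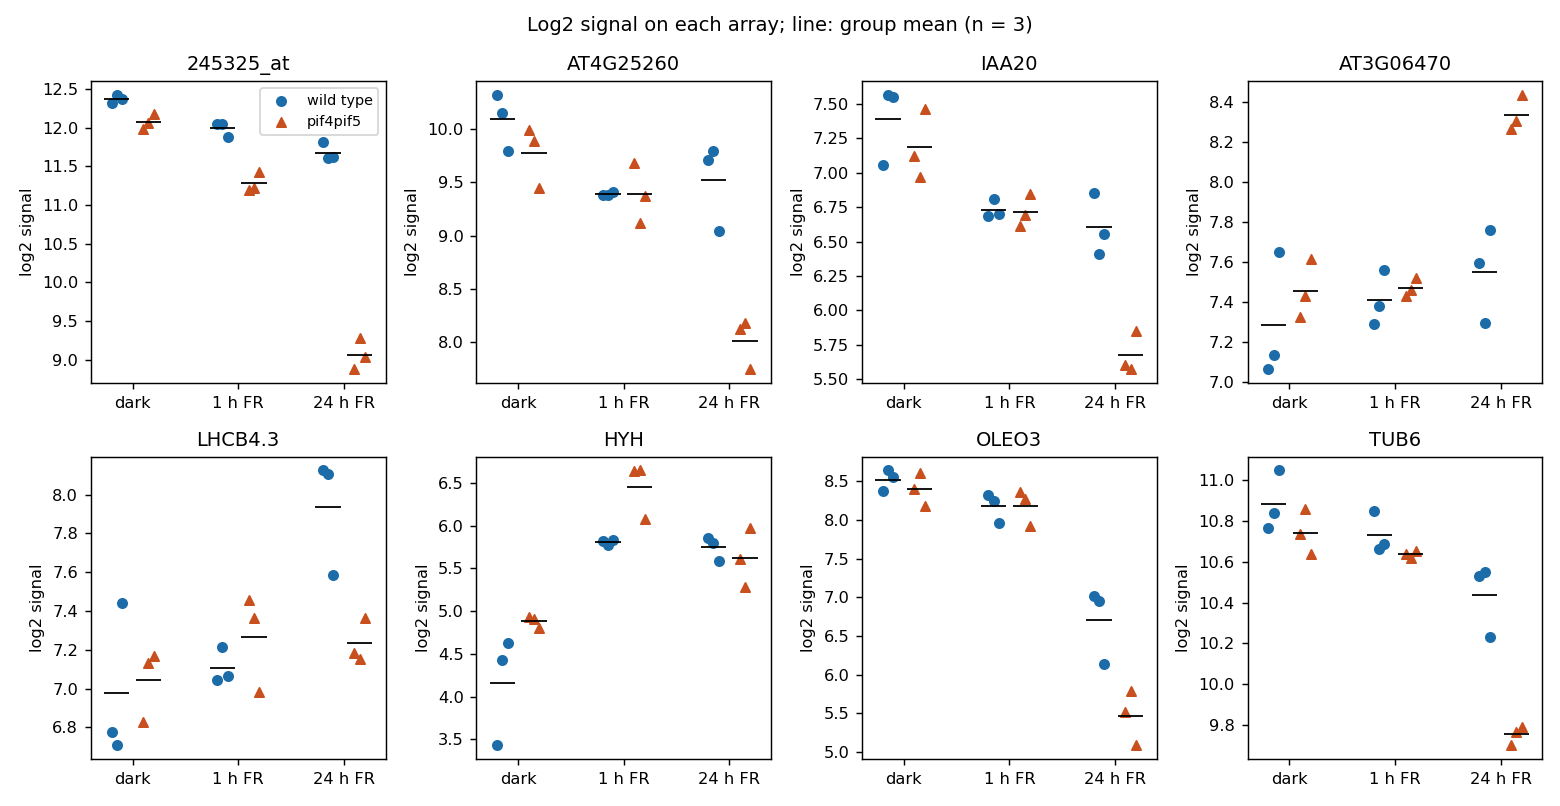
Log2 signal (y axis) of 8 probe sets on each array, by condition (x axis), with circles for wild type, triangles for pif4pif5 and a line at the mean of 3 arrays. 245325_at stands at 8.88 to 9.29 in the mutant at 24 h and above 11 on all other arrays, while the other panels show differences that did not pass the test of the interaction.

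For most probe sets the data bound the interaction rather than place it at 0. The median over all probe sets was 0.01, and the median half-width of the 95% confidence interval was 0.44, against 0.31 for a difference between 2 groups. The interval lay within 1 log2 unit of 0, a 2-fold difference in change, for 20646 probe sets, or 90.8%. An estimate beyond 1 log2 unit was found for 86 probe sets, and an unadjusted p under 0.05 for 1237, or 5.44%. Without replicate C of wild type at 24 h the count of calls was 6, all lower. That array was singled out by its likeness to the other genotype, so leaving it out tends to widen the difference between genotypes at 24 h. Without both atypical arrays, an alternative chosen after the data were seen, the count was 39, of which 5 were higher and 34 lower.

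The 5 probe sets that joined 245325_at without the atypical wild-type array were 249823_s_at, AT3G42800, AT4G25260, 255642_at and 261717_at. AT3G42800 shows the pattern: in wild type at 24 h it read 7.90 and 7.91 on replicates A and B and 6.62 on replicate C, against 6.35, 6.28 and 6.26 in the mutant. With all arrays its interaction was -1.21 (SE 0.38, adjusted p = 0.869), and without replicate C it was -1.64 (SE 0.21, adjusted p = 0.0232). On this gene the array lay nearer the mutant's levels than those of its own group. Replicate C was likewise the low one on 249823_s_at, which read 6.54, 6.75 and 5.32 in wild type at 24 h and from 4.93 to 5.32 in the mutant. Its interaction was -1.17 (SE 0.40, adjusted p = 0.869), and -1.61 (SE 0.22, adjusted p = 0.0288) without replicate C.

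The change from 1 h to 24 h ran alongside in the genotypes. In wild type 2316 probe sets were called (10.2%), 1222 higher (5.37%) and 1094 lower (4.81%). In pif4pif5 3645 were called (16%), 1669 higher (7.34%) and 1976 lower (8.69%). Higher calls made up 45.8% in the mutant, and 57.1% when all arrays were shifted to one median (2241 higher and 1682 lower). Of the 1222 that rose in wild type, 1193 had the same sign in the mutant, 886 also rose there and 0 fell. Of the 1094 that fell, 1087 had the same sign, 810 fell in both and 0 rose in the mutant. Among all probe sets 74.7% had the same sign in both genotypes. The changes in the 2 genotypes share no array. Across the 22746 probe sets they correlated at 0.806, and the slope of the mutant's change on that of the wild type was 0.916. That is a description, since probe sets are not independent replicates and all 24 h groups share the light treatment and age. The wild-type count was 1412, 1468 and 1528 without replicate A, B or C at 1 h, and the mutant count was 2414 without replicate A at 1 h.

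**Figure D2:**
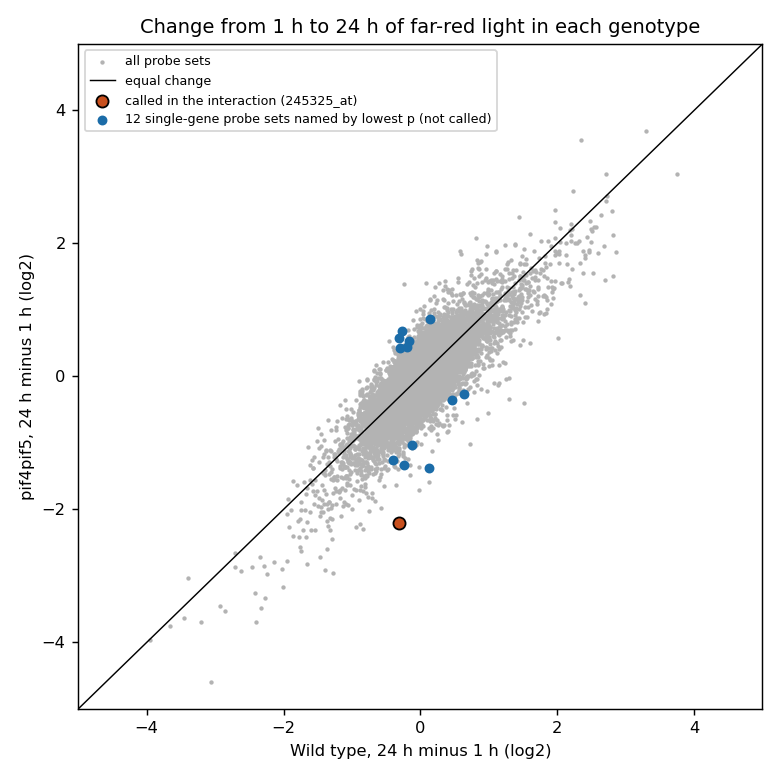
Change from 1 h to 24 h of far-red light (log2) in wild type (x axis) and in pif4pif5 (y axis), 1 point per probe set, with a line at equal change. The points follow the line with a correlation of 0.806, and 245325_at lies below it at -0.31 in wild type and -2.21 in the mutant.

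The difference between the genotypes was called for 4 probe sets at 1 h (0.0176%), 1 higher (0.0044%) and 3 lower (0.0132%). At 24 h it was called for 115 (0.506%), 29 higher (0.127%) and 86 lower (0.378%). The split at 1 h was not stable. Quantile normalization gave 2 higher and 3 lower, a common array median 5 and 4, and the replicate letter as a block 62 and 9. With array weights it was 138 and 40, and without mutant replicate C at 1 h 60 and 5. A larger count at 24 h does not by itself show that the difference grew, and of the 115 only 245325_at was called in the interaction. Of the 86 lower probe sets, 74 were also lower at 1 h, against 54.9% of all probe sets below 0 at that time. Their median difference was -0.99 at 24 h, -0.20 at 1 h and -0.23 in darkness. Of the 29 higher ones 22 were higher at 1 h, with medians of 0.73 at 24 h, 0.22 at 1 h and 0.13 in darkness. The 24 h arrays chose these sets, so a larger difference at 24 h than at 1 h, found in 29 of 29 and 85 of 86, follows in part from the choice and carries no test.

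Of the 86 probe sets lower in the mutant at 24 h, 38 fell in the mutant between 1 h and 24 h without a call in wild type, and 15 fell in both. A further 13 rose in wild type without a call in the mutant, 8 rose in both and 12 were called in neither. Of the 29 higher ones 17 rose in the mutant without a call in wild type and 8 rose in both, while 2 fell in wild type without a call in the mutant and 2 were called in neither. These counts share arrays with the calls at 24 h, which chose the probe sets, so they are a description. Among all probe sets 8.69% fell in the mutant and 4.81% in wild type, while 7.34% and 5.37% rose. The count of calls at 24 h was 25 and 27 without replicate A or B of wild type at 24 h and 374 without replicate C. It was 76 and 63 without wild-type replicate A or B at 1 h, and 56 and 62 without mutant replicate A or B at 24 h. At 1 h it was 2 without wild-type replicate A and 65 without mutant replicate C.

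None of the 4 probe sets called at 1 h was called in the interaction, with unadjusted p from 7.53e-04 to 0.264. On 251497_at, to which no gene is assigned, the mutant read 3.21, 3.45 and 3.45 at 1 h and 3.25, 3.79 and 3.49 at 24 h, near the level of 3.57 under which 25% of probe sets lay. The wild type read 8.08, 7.92 and 7.82 at 1 h and 8.17, 8.54 and 8.84 at 24 h. The genotypes were far apart at both times, by -4.57 (SE 0.17, adjusted p = 1.49e-08) and -5.01 (SE 0.17, adjusted p = 4.46e-09), and the interaction was -0.44 (SE 0.25, adjusted p = 0.907). In darkness the difference was -3.56.

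AT5G02580 fell short of a call in the interaction, although its difference was called at both times. Its levels were 6.58, 6.98 and 6.67 in wild type at 1 h, and 7.60, 7.78 and 7.63 at 24 h. In the mutant they were 5.52, 5.50 and 5.51 at 1 h and 5.67, 5.80 and 5.42 at 24 h. The wild type rose by 0.93 (SE 0.13, adjusted p = 4.34e-04) and the mutant differed by 0.12 (SE 0.13, adjusted p = 0.56). The genotype difference was -1.23 at 1 h (adjusted p = 0.00331) and -2.04 at 24 h (adjusted p = 4.49e-06), and the interaction was -0.81 (SE 0.19, adjusted p = 0.592).

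AT5G26270 was lower in the mutant by 1.12 at 1 h (SE 0.15, adjusted p = 0.0147) and by 0.89 at 24 h (SE 0.15, adjusted p = 0.0189), with an interaction of 0.24 (SE 0.21, adjusted p = 0.924). Each call was lost without replicate A or B of either genotype at its own time (adjusted p up to 0.147 at 1 h and 0.0899 at 24 h). 260973_at, without an assigned gene, was the single probe set higher at 1 h, by 1.1 (SE 0.13, adjusted p = 0.00538), a call lost with all 18 arrays in the fit or without wild-type replicate A at 1 h (adjusted p up to 0.169). At 24 h it differed by 0.39 (SE 0.13, adjusted p = 0.221), and its interaction was -0.71 (SE 0.18, adjusted p = 0.727).

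Among the 13513 probe sets that name 1 gene, none was called in the interaction. When fitted alone, 719 of them (5.32%) had an unadjusted p under 0.05. The 6 single-gene probe sets of lowest p in each direction are given as estimates. On the lower side stood AT4G25260, whose levels at 1 h were 9.38, 9.38 and 9.41 in wild type and 9.69, 9.12 and 9.37 in the mutant. At 24 h they were 9.71, 9.80 and 9.05 in wild type and 8.12, 8.18 and 7.74 in the mutant. The genotypes overlapped at 1 h and were apart at 24 h, as they were on 13.2% of all probe sets. The mutant fell by 1.38 (SE 0.20, adjusted p = 3.87e-04) and the wild type differed by 0.13 (SE 0.20, adjusted p = 0.756), with an interaction of -1.51 (SE 0.28, adjusted p = 0.469). It was called without replicate C of wild type at 24 h, at -1.75 (SE 0.23, adjusted p = 0.0232).

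IAA20, a member of the Aux/IAA family of repressors of auxin response, had wild-type levels of 6.68, 6.81 and 6.70 at 1 h and 6.85, 6.41 and 6.56 at 24 h. The mutant had 6.61, 6.69 and 6.85 at 1 h and 5.61, 5.57 and 5.85 at 24 h. The 24 h levels lay below all wild-type arrays, and 13.2% of all probe sets did not overlap between the genotypes at 24 h. IAA20 fell by 1.04 in the mutant (SE 0.13, adjusted p = 1.64e-04) and differed by -0.12 in wild type (SE 0.13, adjusted p = 0.641). Its interaction was -0.91 (SE 0.19, adjusted p = 0.592), and at 24 h it was lower in the mutant by 0.93 (SE 0.13, adjusted p = 0.00851).

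AT3G54510 had wild-type levels of 6.57, 7.03 and 7.0 at 1 h and 6.54, 6.68 and 6.64 at 24 h. In the mutant they were 6.74, 6.26 and 6.65 at 1 h and 5.05, 5.19 and 5.41 at 24 h. The mutant fell by 1.33 (SE 0.16, adjusted p = 9.79e-05), and the interaction was -1.09 (SE 0.22, adjusted p = 0.592). AT1G04990 fell by 1.25 in the mutant (SE 0.13, adjusted p = 3.62e-05) and differed by -0.40 in wild type (SE 0.13, adjusted p = 0.0643), an interaction of -0.85 (SE 0.18, adjusted p = 0.592). AT5G60840 and AT1G53450 ran the other way in wild type: they rose there by 0.64 (SE 0.12, adjusted p = 0.00424) and 0.46 (SE 0.12, adjusted p = 0.0253). The rise of AT1G53450 was lost in 7 of 22 alternatives (adjusted p up to 0.266). In the mutant AT5G60840 and AT1G53450 differed by -0.26 and -0.36 (adjusted p = 0.17 and 0.0585), which gave interactions of -0.90 (SE 0.17, adjusted p = 0.537) and -0.82 (SE 0.17, adjusted p = 0.592). At 24 h all 6 of these genes were called lower in the mutant (0.378% of all probe sets were), and at 1 h 0 of 6 were (0.0132%). The 6 were chosen by an interaction p that uses the same arrays, so these counts are a description. The calls at 24 h held in all alternatives for AT4G25260 and AT3G54510. That of AT5G60840 was lost in 7 of 21 (adjusted p up to 0.0993), among them the 2-fold minimum. The 2-fold minimum also removed the calls of AT1G04990, AT1G53450 and IAA20. That of AT1G04990 was lost as well without wild-type replicate A or B at 24 h (adjusted p up to 0.0666). That of AT1G53450 was lost as well with all 18 arrays in the fit (adjusted p = 0.114).

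On the higher side, AT3G06470 read 7.29, 7.38 and 7.56 in wild type at 1 h and 7.59, 7.30 and 7.76 at 24 h. In the mutant it read 7.43, 7.46 and 7.52 at 1 h and 8.26, 8.30 and 8.43 at 24 h. The 24 h levels lay above every wild-type array, and 13.2% of all probe sets did not overlap between the genotypes at 24 h. AT3G06470 rose in the mutant by 0.86 (SE 0.13, adjusted p = 5.29e-04), with an interaction of 0.72 (SE 0.18, adjusted p = 0.724). At 24 h it was higher in the mutant by 0.78 (SE 0.13, adjusted p = 0.0189), a call lost without replicate A or B of wild type or C of the mutant at that time (adjusted p up to 0.085).

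AT1G49650 and AT2G42270 were the largest of the 6 higher estimates. AT1G49650 read 7.31, 7.41 and 7.27 in wild type at 1 h and 6.81, 6.92 and 7.31 at 24 h. The mutant read 7.03, 6.95 and 6.91 at 1 h and 7.57, 7.66 and 7.36 at 24 h, so the order of the genotypes turned between the times. The difference was -0.37 at 1 h (adjusted p = 0.574) and 0.52 at 24 h (adjusted p = 0.118), and neither passed. The interaction was 0.89 (SE 0.19, adjusted p = 0.592). AT2G42270 differed by -0.50 at 1 h and 0.45 at 24 h, with an interaction of 0.96 (SE 0.22, adjusted p = 0.592). The rest were AT3G04750 at 0.71 (SE 0.16, adjusted p = 0.592), AT1G06830 at 0.64 (SE 0.15, adjusted p = 0.685) and AT2G12240 at 0.73 (SE 0.18, adjusted p = 0.713). The last is annotated as a pseudogene and read by a probe set of the kind that can detect related sequences. All 6 rose in the mutant between 1 h and 24 h, and 0 were called in wild type, against 7.34% and 5.37% of all probe sets called higher. They too were chosen by an interaction p from the same arrays. The rise of AT2G12240 was lost in 12 of 21 alternatives (adjusted p up to 0.118). With all 18 arrays in the fit the rises of AT1G49650, AT3G04750 and AT1G06830 were lost as well, the last also without mutant replicate C at 1 h (adjusted p up to 0.0607).

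**Figure D3:**
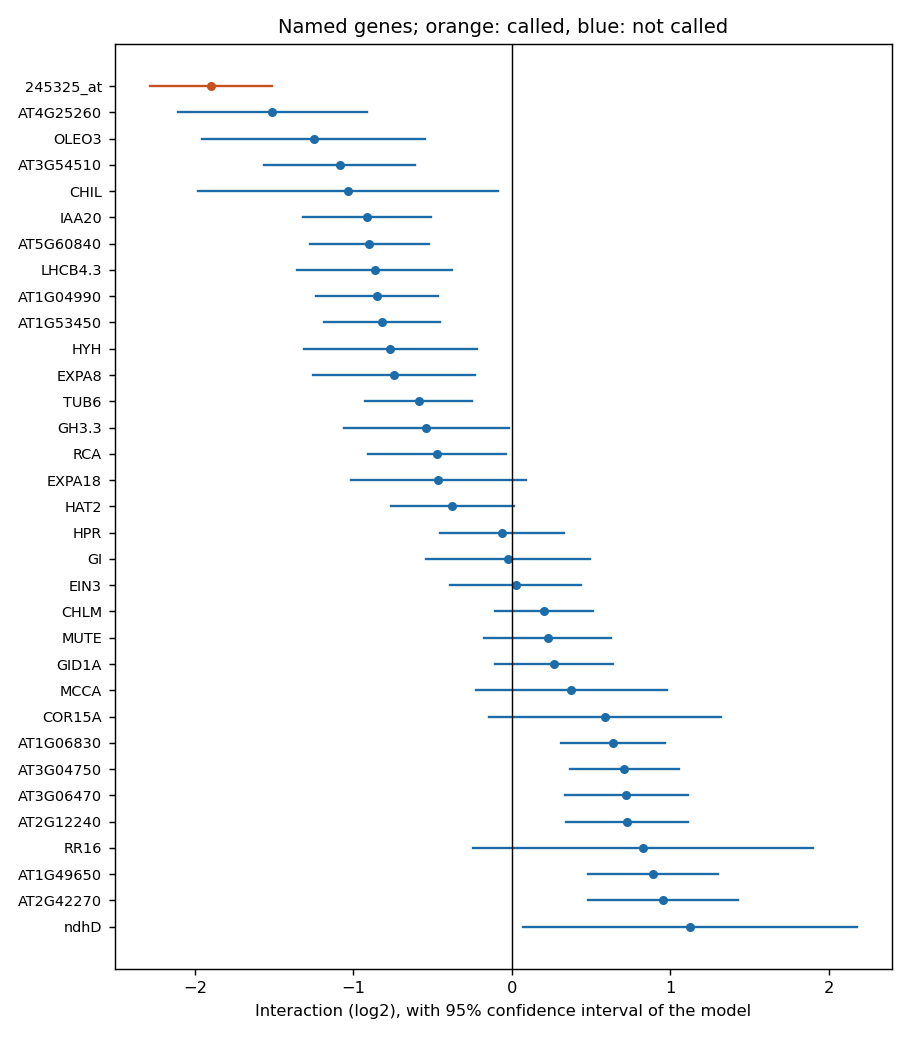
Interaction (x axis, log2) of 245325_at, of the 12 single-gene probe sets of lowest p and of the member of lowest p of each measured list, with bars for the 95% confidence interval of the model. 245325_at is the called one at -1.90, and the unadjusted intervals of the others run from -2.11 at the low end of AT4G25260 to 2.18 at the high end of ndhD.

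The pathways of greening and growth were read through lists of genes that were drawn up with earlier results of these data known. In the platform annotation 75 of the 421 nuclear genes in the lists had a probe set assigned to them alone, as had 69 of 129 genes of the plastid genome. Only these are counted as measured. The other genes may be read by the 8730 tested probe sets naming no gene or the 503 naming several, which no list includes. None of the 144 measured genes was called in the interaction by limma (0 at an adjusted p under 0.05, 12 at an unadjusted p under 0.05, lowest adjusted p 0.769). For 78 of them the interval lay within 1 log2 unit of 0. The brassinosteroid list and the list of meristem and division markers had 0 measured genes. List medians are read beside the median of 0.01 and the 47.9% of values below 0 over all probe sets, and carry no test.

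Genes of the photosynthetic apparatus rose in both genotypes. Of the 8 measured photosystem and light-harvesting genes 8 rose between 1 h and 24 h in wild type, by a median of 1.33, and 7 in the mutant, where the list median was 1.04. Of all probe sets 5.37% rose in wild type and 7.34% in the mutant. Their interaction was below 0 in 8 of 8, from -0.87 to -0.12 with a median of -0.35, and none was called. The genotype difference of the list had a median of 0.50 at 1 h and 0.20 at 24 h, with 0 called at either time. Over the alternatives the list median of the interaction ran from -0.47 to -0.28.

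PSAE-1, a subunit of photosystem I, had the largest genotype difference of the list at 1 h. It read 9.94, 10.07 and 9.51 in wild type and 10.95, 10.98 and 10.32 in the mutant at 1 h. At 24 h it read 11.82, 11.68 and 11.47 in wild type and 11.95, 11.99 and 11.96 in the mutant. The genotypes did not overlap at either time, which held for 17.1% of all probe sets at 1 h and 13.2% at 24 h. The difference was 0.91 at 1 h (adjusted p = 0.201) and 0.31 at 24 h (adjusted p = 0.506), and neither passed. The interaction was -0.60 (SE 0.26, adjusted p = 0.904). PSAN, another subunit of photosystem I, rose by 1.86 in wild type and 1.48 in the mutant, an interaction of -0.38 (SE 0.18, adjusted p = 0.904).

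LHCB4.3, which encodes an antenna protein of photosystem II, was the member of lowest p. It read 7.04, 7.21 and 7.07 in wild type and 7.46, 7.36 and 6.98 in the mutant at 1 h. The 24 h arrays read 8.12, 8.10 and 7.59 in wild type and 7.19, 7.15 and 7.36 in the mutant. The gene rose in wild type by 0.83 (SE 0.16, adjusted p = 0.00423), and the mutant differed by -0.03 (SE 0.16, adjusted p = 0.906). Its interaction of -0.87 (SE 0.23, adjusted p = 0.769) did not pass. The related antenna genes LHCB4.1 and LHCB4.2 rose in both genotypes, with interactions of -0.12 and -0.26.

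Chlorophyll synthesis had interaction estimates in a narrower range. Its 9 measured genes had a median interaction of -0.01, from -0.18 to 0.23, and for 9 of 9 the interval lay within 1 log2 unit of 0. In wild type 5 rose and 1 fell between the times, and in the mutant 4 rose and 1 fell. Over all probe sets 5.37% rose and 4.81% fell in wild type, and 7.34% rose and 8.69% fell in the mutant. HEME1, a uroporphyrinogen decarboxylase of the tetrapyrrole pathway, read 8.05, 8.25 and 7.86 in wild type and 8.83, 8.92 and 8.49 in the mutant at 1 h. The 24 h arrays read 9.40, 9.37 and 8.94 in wild type and 10.09, 10.35 and 10.08 in the mutant. Here the mutant mean was higher at both times, by 0.70 at 1 h (adjusted p = 0.246) and 0.93 at 24 h (SE 0.16, adjusted p = 0.0221). The interaction was 0.23 (SE 0.23, adjusted p = 0.928). CHLM, a methyltransferase of the same pathway, rose by 0.83 in wild type and 1.03 in the mutant, and its interaction was 0.20 (SE 0.14, adjusted p = 0.914). PORB, which reduces protochlorophyllide in the light, fell by 0.70 and 0.72, with an interaction of -0.02 (SE 0.25, adjusted p = 0.995).

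Of the 3 measured genes of carbon fixation, RCA and SBPASE stood lower in the interaction and PRK higher. RCA, the activase of Rubisco, rose by 1.39 in wild type (SE 0.14) and 0.92 in the mutant (SE 0.14), and its interaction was -0.47 (SE 0.20, adjusted p = 0.904). SBPASE, a phosphatase of the Calvin cycle, rose by 1.13 and 0.68, an interaction of -0.46 (SE 0.24, adjusted p = 0.904). PRK, the kinase that regenerates the acceptor of carbon dioxide, gave 0.24 (SE 0.16, adjusted p = 0.914). HPR, a reductase of photorespiration, rose by 1.52 and 1.46 with an interaction of -0.06 (SE 0.18), whose sign turned without replicate B of the mutant at 1 h or A at 24 h (0.05 and 0.03).

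Of 36 listed genes of light signalling 2 had an assigned probe set. Both fell in the mutant, as did 8.69% of all probe sets, and were not called in wild type. HYH, a bZIP factor close to the greening regulator HY5, read 5.82, 5.77 and 5.83 in wild type and 6.64, 6.64 and 6.07 in the mutant at 1 h. The levels at 24 h were 5.86, 5.80 and 5.58 in wild type and 5.61, 5.29 and 5.97 in the mutant. All mutant arrays lay above the wild type at 1 h, when 17.1% of all probe sets did not overlap, and the groups overlapped at 24 h. In darkness the mean of HYH was higher in the mutant by 0.72, which was not tested. HYH fell by 0.83 in the mutant (SE 0.18, adjusted p = 0.00655) and differed by -0.06 in wild type (adjusted p = 0.884), an interaction of -0.77 (SE 0.25, adjusted p = 0.869). FHL, a partner in the nuclear import of phytochrome A, fell by 0.75 in the mutant (adjusted p = 0.0115) and differed by -0.15 in wild type, an interaction of -0.60 (SE 0.25, adjusted p = 0.904).

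**Figure D4:**
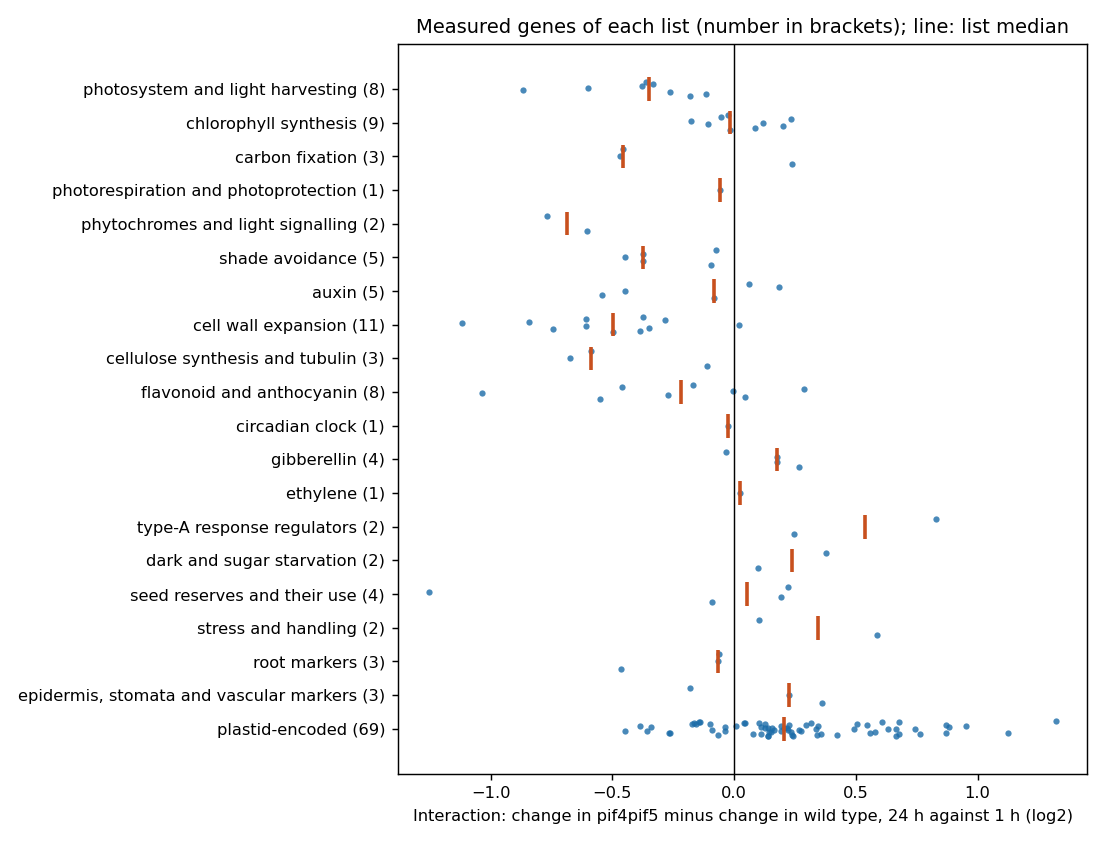
Interaction (x axis, log2) of each measured gene, by list, with the number of measured genes in brackets and a line at each list's median. The photosystem genes (8 of 8) and most cell wall expansion genes (10 of 11) lie below 0, the chlorophyll genes lie between -0.18 and 0.23, and the plastid-encoded genes spread from -0.45 to 1.32.

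Several genes of cell wall growth fell in both genotypes. The 11 measured expansins and xyloglucan-modifying enzymes, which loosen the cell wall, had a median interaction of -0.50, with 10 of 11 below 0 and 0 called. Between the times 4 fell in wild type (median -0.54) and 7 in the mutant (median -1.48), against 4.81% and 8.69% of all probe sets. Over the alternatives the list median of the interaction ran from -0.98, without both atypical arrays, to -0.34. XTH18 read 8.54, 8.62 and 8.24 in wild type and 9.17, 8.25 and 8.41 in the mutant at 1 h. The levels at 24 h were 8.08, 8.67 and 7.04 in wild type and 6.72, 7.62 and 6.52 in the mutant. The groups overlapped at both times, and the spread at 24 h left an interaction of -1.12 (SE 0.52, adjusted p = 0.904).

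XTH19 fell by 2.42 in wild type and 3.26 in the mutant, an interaction of -0.84 (SE 0.55, adjusted p = 0.913). EXPA9 fell by 1.91 and 2.26, an interaction of -0.35 (SE 0.22, adjusted p = 0.909). EXPA8 differed by 0.48 in wild type (adjusted p = 0.0903) and -0.26 in the mutant (adjusted p = 0.314), the lowest p of the list at an interaction of -0.74 (SE 0.24, adjusted p = 0.869). EXPB3, a beta-expansin, was the exception at 0.02 (SE 0.24, adjusted p = 0.996).

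The beta-tubulin gene TUB6 was called lower in the mutant at 24 h. It read 10.85, 10.66 and 10.69 in wild type and 10.64, 10.62 and 10.65 in the mutant at 1 h. The levels at 24 h were 10.53, 10.55 and 10.23 in wild type and 9.70, 9.77 and 9.79 in the mutant. The mutant levels at 24 h lay below all others, and 13.2% of all probe sets did not overlap between the genotypes then. The difference of TUB6 at 24 h was -0.68 (SE 0.11, adjusted p = 0.0189). That call was lost without replicate A or B of wild type or A of the mutant at 24 h (adjusted p up to 0.0901). TUB6 fell by 0.88 in the mutant (adjusted p = 1.58e-04) and differed by -0.29 in wild type (adjusted p = 0.122), an interaction of -0.59 (SE 0.16, adjusted p = 0.856). TUB1, a second beta-tubulin gene, fell by 2.86 and 3.53, an interaction of -0.67 (SE 0.40, adjusted p = 0.907). COB, a membrane-anchored protein needed for oriented cellulose, gave -0.11 (SE 0.20).

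The 5 shade avoidance genes measured were all below 0, with a median of -0.37. HAT2, a homeodomain factor of the shade response, fell by 0.51 in wild type (adjusted p = 0.0208) and 0.88 in the mutant (adjusted p = 4.14e-04), an interaction of -0.38 (SE 0.18, adjusted p = 0.904). The call in wild type was lost in 6 of 22 alternatives (adjusted p up to 0.0922). IAA29, an Aux/IAA repressor counted in the auxin list too, rose by 2.14 and 1.69, an interaction of -0.45 (SE 0.28, adjusted p = 0.908). The auxin list had a median of -0.08, which ran from -0.49 to 0.01 over the alternatives. GH3.3, which conjugates auxin to amino acids, gave -0.54 (SE 0.24, adjusted p = 0.904). XTH33, counted in both the shade and the wall lists, gave -0.37 (SE 0.48).

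OLEO3, an oleosin that coats the oil bodies of the seed, fell in both genotypes and reached the lowest levels in the mutant. It read 8.33, 8.24 and 7.96 in wild type and 8.37, 8.28 and 7.92 in the mutant at 1 h. At 24 h it read 7.02, 6.96 and 6.14 in wild type and 5.51, 5.79 and 5.09 in the mutant. The fall was 1.47 in wild type (SE 0.23, adjusted p = 0.00101) and 2.72 in the mutant (SE 0.23, adjusted p = 9.11e-06). Its interaction was -1.25 (SE 0.33, adjusted p = 0.769), and -1.70 (SE 0.24, adjusted p = 0.0285) without both atypical arrays. The mutant was lower by 1.24 at 24 h (adjusted p = 0.0313), a call lost in 7 of 22 alternatives (adjusted p up to 0.161). ICL, the isocitrate lyase that turns stored fat into sugar, fell by 0.99 and 0.80, with an interaction of 0.19 (SE 0.24, adjusted p = 0.941).

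Other lists had few measured genes. The 8 flavonoid and anthocyanin genes had a median of -0.22, from -1.04 for CHIL, a chalcone isomerase-like gene (SE 0.44, adjusted p = 0.904), to 0.29 for UF3GT. CHIL spread widely in the mutant at 1 h, at 5.99, 6.29 and 4.80. The gibberellin receptor genes GID1A, GID1B and GID1C gave 0.27, 0.18 and 0.17 (adjusted p = 0.912, 0.96 and 0.928). GI of the circadian clock gave -0.03 (SE 0.24) and EIN3 of ethylene signalling 0.02 (SE 0.19), both with signs that turned under some alternatives. RR16, a type-A response regulator of cytokinin signalling, gave 0.83 (SE 0.50, adjusted p = 0.907). Its mutant arrays at 24 h read 3.25, 5.25 and 3.61, and the high one was the atypical replicate B, without which the interaction of RR16 was 0.22. MCCA of leucine breakdown gave 0.38 (SE 0.28, adjusted p = 0.914).

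Genes of the plastid genome had no called interaction, and the sign of their median turned with 1 array. The 69 measured genes had a median of 0.20, with 53 above 0, and the interval lay within 1 log2 unit of 0 for 25. Between the times 0 were called in wild type and 6 of 69 rose in the mutant, a share near the 7.34% of all probe sets. ndhD, a subunit of the plastid NADH dehydrogenase-like complex, read 6.16, 8.11 and 7.65 in the mutant at 1 h and 8.61, 8.71 and 8.82 at 24 h. In wild type it read 8.10, 8.06 and 7.79 at 1 h and 8.04, 8.36 and 8.39 at 24 h. Only mutant replicate A at 1 h lay far below the others. The interaction of ndhD was 1.13 (SE 0.49, adjusted p = 0.904), and 0.55 without that array. The list median became -0.25 without that array and 0.61 without mutant replicate B at 1 h.

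Markers of other tissues gave 0 calls in the interaction. The mean level of the 3 measured root markers per array ran from 6.12 to 6.57 in wild type and from 6.18 to 6.25 in the mutant at 24 h, and their interactions from -0.46 to -0.06. The 3 markers of epidermis and stomata ran from 3.99 to 4.43 and from 4.08 to 4.59, in the lower part of the range of levels, with interactions from -0.18 to 0.36. COR15A, a cold-regulated gene of the stress list, read 4.39, 4.04 and 3.13 in the mutant at 24 h and from 3.00 to 3.48 on the other far-red arrays, with an interaction of 0.59 (SE 0.34, adjusted p = 0.907). The part of tissue makeup or handling in the results above was not tested.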

How the data were processed

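Biotin-labelled RNA from 18 seedling samples was hybridised to Affymetrix arrays, as the labels' protocols state. The deposited log2 intensities had been summarised by the authors with RMA, per the submitters' processing notes, and were used as deposited. The version of RMA is not given in the sources used here. Of 22810 probe sets, 64 were controls. Of the 22746 tested, 13513 named 1 gene, 503 several and 8730 none in the platform annotation. For 13436 a locus was found in the RefSeq table (TAIR10.1), which gave the symbols. Plastid genes were taken by the plastid chromosome of that table, since its locus tags differ from those of the planned list.

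For the 12 far-red arrays, limma 3.58.1 (R 4.3.3) estimated a mean in each group and moderated variances (8 degrees of freedom from the residuals plus 5.41 from the prior). P-values had Benjamini-Hochberg adjustment over all 22746 probe sets. The fit was tested on simulated data. The 4 other comparisons came from the same fit. Over the 4 groups the replicate letters A, B and C did not meet the criterion for pairing, as 8 of 18 same-letter pairs of arrays had deviations that correlated above 0.1. Within wild type all 3 pairs of 1 h with 24 h did (0.103 to 0.304), as did replicate C in most group pairs (up to 0.451), and a shared origin of equal letters was not tested. Genes are named by a rule: up to 12 called in each direction, filled up to 6 by lowest p, up to 3 called members of each list or the one of lowest p, and at most 2 called probe sets without a gene in each direction. Other probe sets named here were chosen after their values were seen. The lists, comparisons and rule were chosen with earlier results of these data known. In list values a gene is read by its brightest probe set. A planned look at promoter motifs was not run, as no promoter sequence was at hand. The number of arrays limits the precision.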

Additional observations from a re-analysis of the deposited data

Results flagged for a closer look

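245325_at drew attention because its change from 1 h to 24 h of far-red light differed between the genotypes by the test of the difference itself. The interaction was -1.90 (SE 0.18, adjusted p = 0.00155 by limma), from a change of -0.31 in wild type and -2.21 in pif4pif5. All 3 mutant arrays at 24 h lay below the other 9 far-red arrays. No other probe set met this criterion. Groups of 3 arrays are too small for a screen of single outlying samples.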

How the results depend on the processing

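The interaction count of 1 became 3 with array weights, which added 261109_at (-1.33) and 265724_at (1.27), 0 over single-gene probe sets, 1 with the replicate letter as a block, 39 without both atypical arrays and 1 to 6 without single arrays. The count for the genotypes at 1 h was 4. It became 71 with the replicate block, 9 after a shift to one median, 13 with an intensity trend and robust moderation, 178 with array weights, 9 without dim probe sets, 2 over single-gene probe sets, 9 without both atypical arrays and 2 to 65 without single arrays. At 24 h the count was 115. It became 201 with the replicate block, 61 over single-gene probe sets, 48 with a 2-fold minimum, 401 without both atypical arrays and 25 to 374 without single arrays. The count for the change in wild type became 1159 over single-gene probe sets, 623 with a 2-fold minimum and 1412 to 2753 without single arrays, and that in pif4pif5 1855, 815 and 2414 to 3935. The block moved no other count by over 1.5 times. List genes called in the interaction numbered 1 (OLEO3) without both atypical arrays and 0 to 0 without single arrays. Signs turned for GI (0.0038 with quantile normalization, 0.0062 after a shift to one median, 0.12 without both atypical arrays, -0.17 to 0.13 without single arrays), EIN3 (-0.028 with array weights, -0.080 to 0.096 without single arrays) and HPR (-0.165 to 0.051 without single arrays). The cause was not tested in any of these, except that single-gene fits test fewer probe sets and the 2-fold minimum is stricter by construction. Of the recomputed interactions of named probe sets 895 kept sign and side of the threshold, 16 came to pass it and 15 changed sign. RMA signals carry no detection call here, and levels under about 3.57 may be near background.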

Other observations

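Besides 245325_at, the lowest adjusted p was 0.15, shared by 2 probe sets with no gene assigned to them, named here after their values were seen. 261109_at read 6.31, 6.25 and 6.31 in wild type at 1 h and 8.12, 8.13 and 8.64 at 24 h. In the mutant it read 6.34, 5.93 and 5.83 at 1 h and 6.62, 6.54 and 6.68 at 24 h. It rose by 2.00 in wild type (adjusted p = 4.94e-06) and 0.58 in the mutant (adjusted p = 0.0234), an interaction of -1.43 (SE 0.22) by limma. The rise in the mutant was lost in 5 of 21 alternatives (adjusted p up to 0.0978). 265724_at read 3.15, 3.31 and 3.15 in wild type and 3.53, 3.54 and 3.44 in the mutant at 1 h. At 24 h it read 5.78, 5.26 and 5.60 in wild type and 7.01, 7.15 and 7.02 in the mutant. It rose by 2.34 in wild type (adjusted p = 4.67e-07) and 3.55 in the mutant (adjusted p = 7.88e-09), an interaction of 1.21 (SE 0.18) by limma. On both probe sets the genotypes stood apart at 24 h, and on 265724_at also at 1 h (13.2% and 17.1% of all probe sets did). At 1 h all arrays read 265724_at under 3.57, a level that may be near background and from which both its rises start.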
